A study of Homo sapiens with 10 samples.

Results

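The antibody secretion genes described here are JCHAIN, MZB1, SEC11C, DERL3, TXNDC5, HERPUD1, FKBP11, PRDX4, CRELD2 and ELL2, 10 genes that plasma cells use to make, fold, check and release antibody. They were chosen by name, with earlier results of these data known. Their counts beside the shares of all genes are therefore a description. A probe set that the platform annotation ties to a single symbol was found for 9 of them, and these 9 genes were set against all 19775 genes with such a probe set. TXNDC5 was on a probe set that the annotation also ties to a read-through transcript, so no value is given for it. RNA was measured on Affymetrix arrays in MM.1S, a human multiple myeloma cell line, in 5 groups of 2 arrays. The groups were cells with the hairpins shHDAC3#1 and shHDAC3#2 against HDAC3, a histone deacetylase of co-repressor complexes, cells with shDNMT1#1 and shDNMT1#2 against DNMT1, which copies DNA methylation to new DNA, and cells with the luciferase hairpin shLuc as control. All 5 groups carried a lentiviral hairpin and were harvested 48 h after infection. The labels name shLuc as control for HDAC3. No source used here says if cells with DNMT1 hairpins were infected and hybridised alongside it, so for DNMT1 a difference of batch and a difference of hairpin cannot be told apart. Separate cultures are not stated for the 2 arrays of any group, so the error behind each p-value may be purely technical. MM.1S is 1 cell line and all groups are bulk RNA of it, in which a loss of secreting cells and less RNA per cell cannot be told apart.

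A plasma cell turns much of its protein synthesis to immunoglobulin. The nascent chain enters the endoplasmic reticulum (ER) through the translocon, loses its signal peptide to the signal peptidase complex, is oxidised and folded by disulphide isomerases and chaperones, and is joined into its final form, while misfolded chains are sent back to the cytosol for ER-associated degradation. XBP1, IRF4 and PRDM1 (BLIMP1) are transcription factors that set up this state, and many of the genes are targets of XBP1 or ATF6, transcription factors of the unfolded protein response. ELL2 acts earlier, in the nucleus: it is a transcription elongation factor that in plasma cells favours the secreted form of the immunoglobulin heavy chain mRNA over the membrane form.

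Because many of these genes answer to the unfolded protein response, their promoters were searched for the letters of 3 response elements: the ER stress response element ERSE (CCAAT, any 9 bases, CCACG), ERSE-II (ATTGG, any base, CCACG) and the unfolded protein response element UPRE (TGACGTGG). The windows ran from 250 bases before to 50 bases after a RefSeq start in GRCh38.p14, and both strands were searched. RefSeq windows were held for 8 of the 10 genes, 10 windows in all, and 3 of the windows had a match. CRELD2 had ERSE on the strand opposite to the gene, at bases -80 to -62 from the start. HERPUD1 had ERSE-II on the strand of the gene, at bases -117 to -107 from the start. TXNDC5 had UPRE on its own strand, at bases -92 to -85 from the start of 1 of its 2 windows. The ERSE letters were present in 0.0769% of all 35116 windows of this length, ERSE-II in 0.0541%, UPRE in 0.729% and any of the 3 in 0.857%. The windows with a match are shown with the matched letters in capitals, on the strand of the gene, 5′ to 3′. Levels are compared below for CRELD2 and HERPUD1 and not for TXNDC5. CRELD2 is at chr22:49918384-49918683 (plus strand), HERPUD1 at chr16:56931892-56932191 (plus strand) and TXNDC5 at chr6:7910028-7910327 (minus strand).
CRELD2: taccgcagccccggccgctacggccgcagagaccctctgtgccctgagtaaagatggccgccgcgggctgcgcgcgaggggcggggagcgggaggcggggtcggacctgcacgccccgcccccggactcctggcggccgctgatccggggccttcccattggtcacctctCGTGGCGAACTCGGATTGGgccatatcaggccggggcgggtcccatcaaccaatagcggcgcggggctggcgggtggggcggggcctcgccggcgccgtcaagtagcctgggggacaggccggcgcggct
HERPUD1: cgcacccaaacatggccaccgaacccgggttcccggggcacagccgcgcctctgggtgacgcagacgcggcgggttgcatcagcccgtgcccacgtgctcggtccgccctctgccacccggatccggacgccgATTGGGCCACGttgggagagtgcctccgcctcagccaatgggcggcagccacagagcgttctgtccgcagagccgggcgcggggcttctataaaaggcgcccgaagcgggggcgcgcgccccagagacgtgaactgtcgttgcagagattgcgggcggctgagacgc
TXNDC5: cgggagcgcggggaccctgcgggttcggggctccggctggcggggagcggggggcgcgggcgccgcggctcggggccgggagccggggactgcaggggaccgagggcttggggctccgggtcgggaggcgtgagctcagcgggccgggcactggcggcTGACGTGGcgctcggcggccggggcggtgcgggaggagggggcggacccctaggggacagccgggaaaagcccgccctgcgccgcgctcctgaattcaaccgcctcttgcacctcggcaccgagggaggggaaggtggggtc

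The gene with the widest swing was MZB1, an ER co-chaperone of immunoglobulin assembly, and its direction differed between hairpins of 1 target. It fell with shHDAC3#1 and shDNMT1#1, rose with shDNMT1#2 and was not called with shHDAC3#2. ELL2 fell with all 4 hairpins. SEC11C, a catalytic subunit of signal peptidase, fell with both HDAC3 hairpins and was near its shLuc level with both DNMT1 hairpins. The threshold for a call was an adjusted p of 0.05 in limma (Benjamini-Hochberg over all 19775 genes), and every change is a difference of log2 signals, tested minus shLuc, with limma's standard error.

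With the 2 hairpins of a target averaged (n = 4 arrays against 2), 6 of the 9 genes were called lower in HDAC3 knockdown and 0 higher, where 15.3% of all genes were called lower and 3.96% higher. At an unadjusted p under 0.05, limma gave 7 lower and 0 higher. No share of all genes is given at an unadjusted p. Counts at that threshold, here and below, therefore have no background and are not comparable with the shares of calls. The median change of the 9 genes was -0.32, against 0.05 for all genes. By mean signal the 9 genes stood between percentile 70.6 (ELL2) and 99.8 (JCHAIN) of all genes. Shares and medians over all genes include dimmer genes, so they are not matched to the 9 genes for signal. In DNMT1 knockdown 5 genes were called lower and 2 higher, where 13.5% of all genes were called lower and 6.66% higher, and the median change was -0.31 against 0.07 for all genes. The 2 knockdowns share the shLuc arrays. Set directly against HDAC3 knockdown, DNMT1 knockdown had 5 of the 9 genes higher and 1 lower, where 6.00% of all genes were called higher and 3.59% lower. The median of that difference was 0.30, against 0.02 for all genes. The model's error leaves out the variation between hairpins of 1 target. With the hairpin group as a random block, 2 of the 9 genes were called in HDAC3 knockdown (ELL2 and SEC11C), 1 in DNMT1 knockdown (ELL2) and 0 in the difference between the knockdowns. At an unadjusted p under 0.05 that limma fit gave 3 lower genes in HDAC3 knockdown, 4 lower in DNMT1 knockdown and 4 higher in the difference. In the fit without that block, calls also depended on the scaling of the arrays. A further quantile normalization ended the PRDX4 call in HDAC3 knockdown and the CRELD2 call in DNMT1 knockdown. DERL3 was then called higher in both knockdowns.

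By hairpin (n = 2 arrays against 2), shHDAC3#1 had the most calls: 8 of the 9 genes were lower and 0 higher, where 16.6% of all genes were called lower and 7.83% higher. DERL3 was the gene not called, and at an unadjusted p under 0.05 limma gave 0 genes higher. With shHDAC3#2, 4 genes were lower and 0 higher, where 9.54% of all genes were called lower and 1.31% higher; at an unadjusted p under 0.05, 1 gene was higher. With shDNMT1#1, 2 were lower and 1 higher, where 6.81% of all genes were called lower and 1.34% higher. With shDNMT1#2, 4 were lower and 2 higher, where 15.2% of all genes were called lower and 11.6% higher. The medians of the 9 changes were -0.50, -0.20, -0.23 and -0.04 in this order of hairpins, against 0.06, 0.05, 0.05 and 0.08 for all genes. Hairpins of 1 target were also set against each other. For shHDAC3#2 minus shHDAC3#1, 3 of the 9 genes were higher and 0 lower, where 8.85% of all genes were called higher and 3.75% lower, and 1 gene was lower at an unadjusted p under 0.05 in limma. For shDNMT1#2 minus shDNMT1#1, 2 were higher and 2 lower, where 3.57% of all genes were called higher and 8.39% lower. Calls by hairpin also depended on scaling. After a further quantile normalization PRDX4 and HERPUD1 were no longer called with shHDAC3#1, and DERL3 was called higher. MZB1 and HERPUD1 were then called higher with shHDAC3#2, and SEC11C, HERPUD1 and DERL3 with shDNMT1#2. JCHAIN was then called lower with shDNMT1#1.

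**Figure D1:**
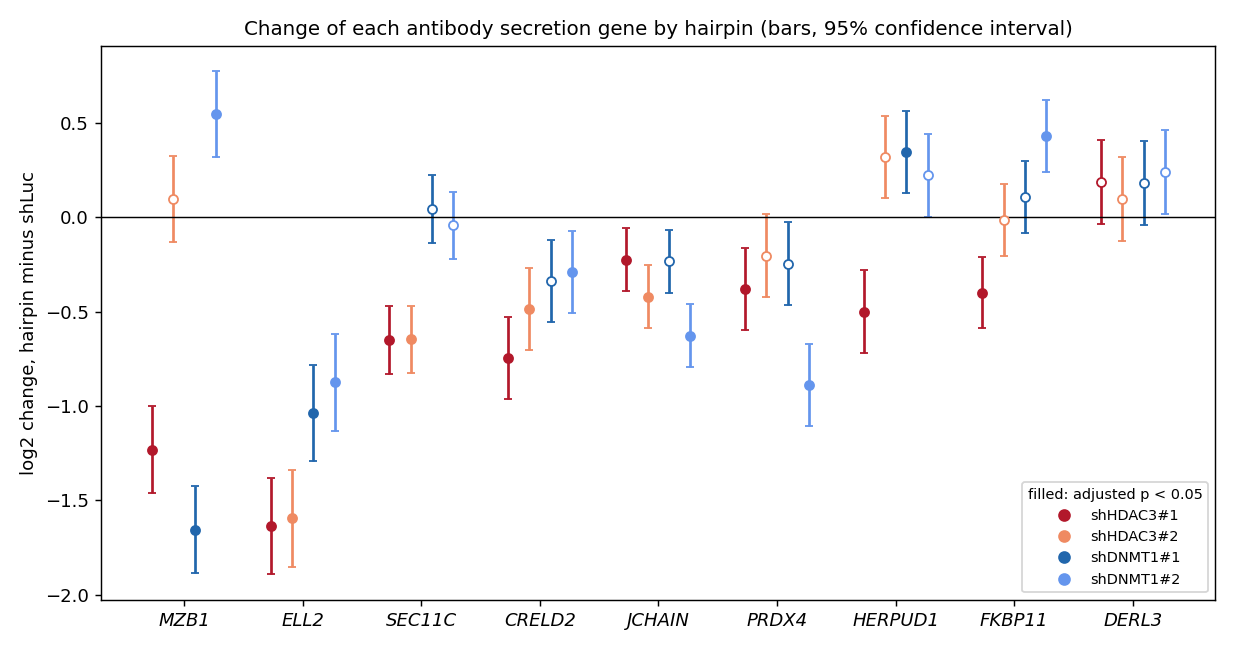
Log2 change of each gene with each hairpin minus shLuc (points, 2 arrays against 2; bars, 95% confidence interval of the limma fit; filled points, adjusted p under 0.05; colours, hairpins). ELL2 is below 0 with all 4 hairpins, SEC11C is at -0.65 with both HDAC3 hairpins and near 0 with the DNMT1 hairpins, and MZB1 spans from -1.66 with shDNMT1#1 to 0.55 with shDNMT1#2.

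Each target fell with its own hairpins. HDAC3 fell by 1.09 ± 0.18 with shHDAC3#1 and by 1.26 ± 0.18 with shHDAC3#2 on the log2 scale, and DNMT1 fell by 2.53 ± 0.12 with shDNMT1#1 and fell by 2.24 ± 0.12 with shDNMT1#2 (adjusted p from 0.00013 to 2.6e-11). DNMT1 also fell with shHDAC3#1 (-1.20 ± 0.12) and shHDAC3#2 (-0.65 ± 0.12), and HDAC3 with shDNMT1#2 (-0.60 ± 0.18, adjusted p = 0.019). All 8 plasma cell markers had a probe set, with means over the 10 arrays between 6.21 (CD38) and 10.70 (POU2AF1). The mean of that marker list was 9.36, 9.32, 9.13 and 9.05 in shHDAC3#1, shHDAC3#2, shDNMT1#1 and shDNMT1#2, against 9.47 in shLuc. Its markers did not move as 1: with shDNMT1#2, TNFRSF17 averaged 9.49 against 10.64 in shLuc, and CD38 6.67 against 5.90. Of the B cell markers, MS4A1 (CD20) averaged 3.06 and the 6 others between 6.24 (BACH2) and 8.01 (CD22), with a median of 7.40 for the list. The medians of the T cell, monocyte and fibroblast or epithelial lists were 4.73, 5.40 and 6.26, and COL1A1 of the last list averaged 8.55. Arrays of 1 group correlated at 0.9937 to 0.9963 over the 19775 genes. The SD of all log2 values was 1.84 to 1.91 in the knockdown arrays, against 1.94 and 1.93 in the shLuc arrays. The 3′ minus 5′ difference of the ACTB probe sets, a measure of RNA integrity, was 0.98 and 1.02 in the shHDAC3#1 arrays, 0.63 to 0.81 in the other knockdown arrays, and 0.70 and 0.75 in the shLuc arrays. The part of these 2 measures in the changes was not tested.

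ELL2, the elongation factor, had log2 signals of 6.71 and 6.70 in the shHDAC3#1 arrays, 6.63 and 6.87 in the shHDAC3#2 arrays, 7.48 and 7.13 in the shDNMT1#1 arrays, and 7.44 and 7.50 in the shDNMT1#2 arrays, against 8.47 and 8.22 in the shLuc arrays. Every knockdown array was below both shLuc arrays, and every HDAC3 array was below every DNMT1 array. ELL2 fell by 1.64 ± 0.12 with shHDAC3#1 and fell by 1.60 ± 0.12 with shHDAC3#2, which left 32.1% and 33.1% of the shLuc signal (adjusted p = 3.6e-09 and 1.4e-08). It fell by 1.04 ± 0.12 with shDNMT1#1 and by 0.88 ± 0.12 with shDNMT1#2, to 48.7% and 54.5% of the shLuc signal (adjusted p = 6.8e-06 and 1.5e-05). The difference between the hairpins of 1 target was small: 0.04 for HDAC3 (95% confidence interval -0.21 to 0.30) and 0.16 for DNMT1 (-0.09 to 0.42). ELL2 was 0.66 ± 0.09 higher in DNMT1 knockdown than in HDAC3 knockdown (adjusted p = 1.9e-05, 0.15 with the hairpin as a random block). ELL2 kept its calls against shLuc when any 1 array was left out.

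Other probe sets of a gene were tested in a fit over all 41091 single-symbol probe sets. Of the other 3 of ELL2, 226982_at and 214446_at changed like the leading one, 226099_at. Their changes were -1.40, -1.08, -0.82 and -0.64 (226982_at) and -1.16, -1.16, -0.86 and -0.62 (214446_at) with shHDAC3#1, shHDAC3#2, shDNMT1#1 and shDNMT1#2. The fourth probe set, 214445_at, lay between 5.44 and 5.88 in all 10 arrays, its shLuc arrays overlapped the others, and it was called in neither knockdown (-0.22 ± 0.12 for HDAC3 and -0.15 ± 0.12 for DNMT1).

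MZB1 binds immunoglobulin heavy chains together with the chaperones of the ER and helps the assembly of secreted antibody. Its log2 signals were 8.92 and 9.20 in the shHDAC3#1 arrays, 10.35 and 10.43 in the shHDAC3#2 arrays, 8.71 and 8.56 in the shDNMT1#1 arrays, and 10.99 and 10.68 in the shDNMT1#2 arrays, against 10.22 and 10.36 in the shLuc arrays. The 4 arrays of shHDAC3#1 and shDNMT1#1 were the lowest, the shHDAC3#2 arrays overlapped the shLuc arrays, and both shDNMT1#2 arrays were above all others. MZB1 fell by 1.23 ± 0.11 with shHDAC3#1 and fell by 1.66 ± 0.11 with shDNMT1#1, to 42.6% and 31.8% of the shLuc signal (adjusted p = 4e-08 and 4.8e-09). It rose by 0.55 ± 0.11 with shDNMT1#2, 1.46 times the shLuc signal (adjusted p = 0.00085), and its change with shHDAC3#2 was 0.10 ± 0.11 (95% confidence interval -0.13 to 0.33, adjusted p = 0.65).

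MZB1 was 1.33 ± 0.11 higher with shHDAC3#2 than with shHDAC3#1 (adjusted p = 1.6e-08) and 2.20 ± 0.11 higher with shDNMT1#2 than with shDNMT1#1 (adjusted p = 1e-11). The averages of the hairpins, -0.57 ± 0.10 for HDAC3 and -0.55 ± 0.10 for DNMT1, lie away from the value of each of the 4 hairpins and were not called with the hairpin as a random block (adjusted p = 0.69 and 0.70). The second probe set, 223565_at, gave changes of -1.61, 0.07, -1.99 and 0.56 with shHDAC3#1, shHDAC3#2, shDNMT1#1 and shDNMT1#2. After a further quantile normalization of the arrays MZB1 was also called higher with shHDAC3#2 (0.27, adjusted p = 0.044), and its other calls kept their direction.

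**Figure D2:**
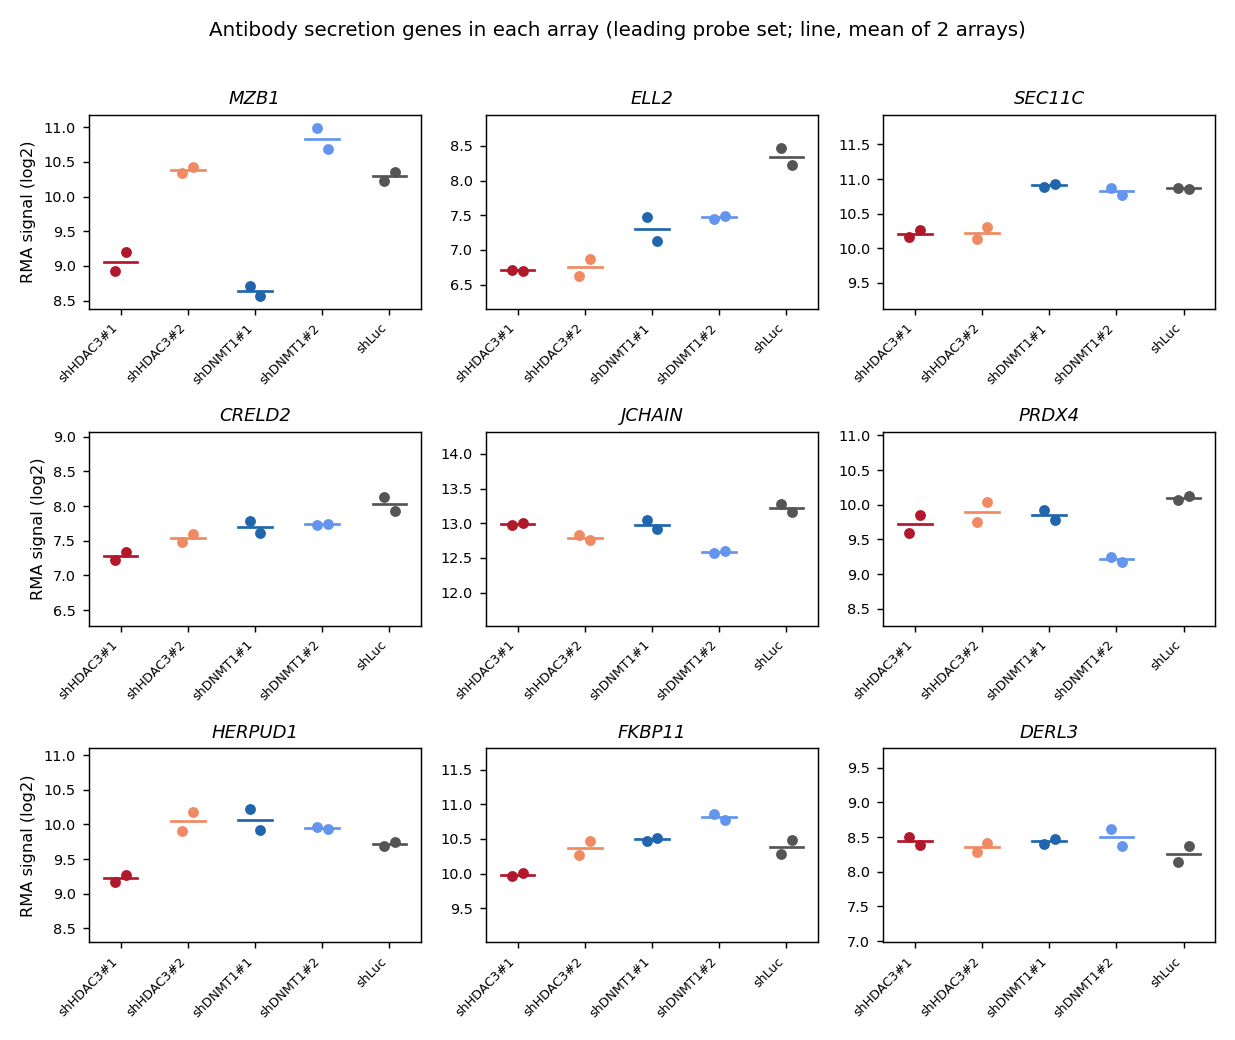
RMA log2 signal of the leading probe set of each gene in all 10 arrays (points; line, mean of the 2 arrays of a group). The shLuc arrays, on the right of each panel, are the highest for ELL2, CRELD2, JCHAIN and PRDX4, while MZB1 has low arrays for 1 hairpin of each target.

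SEC11C forms 1 of the alternative catalytic subunits of signal peptidase. Its log2 signals were 10.17 and 10.26 in the shHDAC3#1 arrays, 10.13 and 10.30 in the shHDAC3#2 arrays, 10.89 and 10.92 in the shDNMT1#1 arrays, and 10.87 and 10.77 in the shDNMT1#2 arrays, against 10.87 and 10.86 in the shLuc arrays. The 4 HDAC3 arrays were below the 6 others, and the shDNMT1#2 arrays overlapped the shLuc arrays. SEC11C fell by 0.65 ± 0.09 with each HDAC3 hairpin, to 63.6% and 63.8% of the shLuc signal (adjusted p = 8.2e-06 and 1.6e-05). With the DNMT1 hairpins the changes were 0.04 ± 0.09 and -0.04 ± 0.09, with 95% confidence intervals of -0.14 to 0.22 and -0.22 to 0.14. SEC11C was 0.65 ± 0.06 higher in DNMT1 knockdown than in HDAC3 knockdown (adjusted p = 2.5e-07, 0.051 with the hairpin as a random block). After a further quantile normalization SEC11C was called 0.19 higher with shDNMT1#2 (adjusted p = 0.011). The second, dimmer probe set 235676_at fell by 0.43 ± 0.11 in HDAC3 knockdown and changed by -0.17 ± 0.11 in DNMT1 knockdown (adjusted p = 0.0096 and 0.31).

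CRELD2, an ER protein induced by stress that carries the ERSE letters shown above, had log2 signals of 7.22 and 7.34 in the shHDAC3#1 arrays, 7.49 and 7.59 in the shHDAC3#2 arrays, 7.78 and 7.60 in the shDNMT1#1 arrays, and 7.73 and 7.75 in the shDNMT1#2 arrays, against 8.13 and 7.93 in the shLuc arrays. All 8 knockdown arrays were below both shLuc arrays. CRELD2 fell by 0.75 ± 0.10 with shHDAC3#1 and by 0.49 ± 0.10 with shHDAC3#2 (adjusted p = 1.6e-05 and 0.0028), and its changes with shDNMT1#1 and shDNMT1#2 were -0.34 ± 0.10 and -0.29 ± 0.10 (adjusted p = 0.051 and 0.044). It was 0.30 ± 0.07 higher in DNMT1 knockdown than in HDAC3 knockdown (adjusted p = 0.0097), a call lost without shHDAC3#1 replicate 1 (0.27, adjusted p = 0.06) or shHDAC3#2 replicate 1 (0.28, adjusted p = 0.057). The DNMT1 call was lost without shLuc replicate 1 (-0.21, adjusted p = 0.35) and after a further quantile normalization (-0.23, adjusted p = 0.058). The shHDAC3#2 call was lost without shHDAC3#2 replicate 1 (-0.43, adjusted p = 0.06) or shLuc replicate 1 (-0.39, adjusted p = 0.086). The call with shDNMT1#2 was lost without either of its own arrays, any of the HDAC3 arrays, or shLuc replicate 1 (-0.19, adjusted p = 0.36). The call with shDNMT1#1 was gained without shDNMT1#1 replicate 1 (-0.42, adjusted p = 0.021) or shLuc replicate 2 (-0.44, adjusted p = 0.035).

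JCHAIN, the joining chain of polymeric IgM and IgA, had log2 signals of 12.97 and 13.01 in the shHDAC3#1 arrays, 12.82 and 12.76 in the shHDAC3#2 arrays, 13.05 and 12.92 in the shDNMT1#1 arrays, and 12.57 and 12.60 in the shDNMT1#2 arrays, against 13.27 and 13.16 in the shLuc arrays. Both shLuc arrays were above all others, and the shDNMT1#2 arrays were the lowest. JCHAIN fell by 0.63 ± 0.08 with shDNMT1#2, to 64.7% of the shLuc signal (adjusted p = 4.5e-06), by 0.42 ± 0.08 with shHDAC3#2 and by 0.23 ± 0.08 with shHDAC3#1 (adjusted p = 0.00084 and 0.044). With shDNMT1#1 the change was -0.23 ± 0.08 (adjusted p = 0.082). JCHAIN was 0.40 ± 0.08 lower with shDNMT1#2 than with shDNMT1#1 (log2 difference -0.40, adjusted p = 0.0016). That difference was not called without shDNMT1#1 replicate 1 (-0.33, adjusted p = 0.059). The call with shHDAC3#1 was lost without any 1 of the shHDAC3#1, shDNMT1#1 or shLuc arrays (adjusted p up to 0.43), and those of shHDAC3#2 and of HDAC3 knockdown without shLuc replicate 1 (-0.37 and -0.27, adjusted p = 0.091 and 0.18). With shDNMT1#1, JCHAIN was called without either shHDAC3#2 array (adjusted p = 0.03 and 0.029) and after a further quantile normalization (-0.24, adjusted p = 0.025). That normalization also gave a call between the HDAC3 hairpins (-0.26, adjusted p = 0.0099, against -0.19 ± 0.08 and 0.14 as deposited).

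PRDX4, the ER peroxiredoxin, which uses hydrogen peroxide to drive disulphide formation, had log2 signals of 9.59 and 9.85 in the shHDAC3#1 arrays, 9.75 and 10.04 in the shHDAC3#2 arrays, 9.92 and 9.78 in the shDNMT1#1 arrays, and 9.24 and 9.18 in the shDNMT1#2 arrays, against 10.07 and 10.13 in the shLuc arrays. Both shLuc arrays were above all others and the shDNMT1#2 arrays were clearly the lowest. PRDX4 fell by 0.89 ± 0.11 with shDNMT1#2, to 54.0% of the shLuc signal (adjusted p = 1.7e-06), and by 0.38 ± 0.11 with shHDAC3#1 (adjusted p = 0.012). The changes with shHDAC3#2 (-0.20 ± 0.11) and shDNMT1#1 (-0.25 ± 0.11) were not called (adjusted p = 0.28 and 0.18). PRDX4 was lower with shDNMT1#2 than with shDNMT1#1, by a log2 difference of -0.64 ± 0.11 (adjusted p = 0.00018). Its HDAC3 call (-0.29 ± 0.09, adjusted p = 0.028) was lost after a further quantile normalization (-0.08, adjusted p = 0.38), as was that of shHDAC3#1 (-0.11, adjusted p = 0.22). Without shHDAC3#1 replicate 1, shHDAC3#2 replicate 1, shLuc replicate 1 or shLuc replicate 2 in turn, the HDAC3 change was -0.23, -0.22, -0.33 and -0.26 and was not called (adjusted p = 0.13, 0.11, 0.17 and 0.15). The shHDAC3#1 change was not called without its replicate 1 (-0.25, adjusted p = 0.23) or without either shLuc array (adjusted p = 0.07 and 0.072). The difference between the knockdowns (DNMT1 minus HDAC3, -0.28 ± 0.07, adjusted p = 0.02) was lost without any 1 of 5 arrays, with values between -0.29 and -0.20 (adjusted p from 0.05 to 0.16): shDNMT1#1 replicate 2, both shDNMT1#2 arrays, shHDAC3#1 replicate 2 and shHDAC3#2 replicate 2.

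FKBP11, a peptidyl-prolyl isomerase of the ER, had log2 signals of 9.96 and 10.01 in the shHDAC3#1 arrays, 10.27 and 10.46 in the shHDAC3#2 arrays, 10.47 and 10.51 in the shDNMT1#1 arrays, and 10.85 and 10.77 in the shDNMT1#2 arrays, against 10.29 and 10.48 in the shLuc arrays. The shHDAC3#1 arrays were the lowest and the shDNMT1#2 arrays the highest, while the shHDAC3#2 and shDNMT1#1 arrays overlapped the shLuc arrays. FKBP11 fell by 0.40 ± 0.09 with shHDAC3#1 and rose by 0.43 ± 0.09 with shDNMT1#2 (adjusted p = 0.0028 and 0.0015). The changes with shHDAC3#2 and shDNMT1#1 were -0.02 ± 0.09 and 0.11 ± 0.09. FKBP11 was 0.48 ± 0.06 higher in DNMT1 knockdown than in HDAC3 knockdown (adjusted p = 2.7e-05). It was also higher with the second hairpin of each target: by 0.38 ± 0.09 with shHDAC3#2 over shHDAC3#1 and by 0.32 ± 0.09 with shDNMT1#2 over shDNMT1#1 (adjusted p = 0.0056 and 0.024). Its other probe sets gave changes of -0.56 (219118_at) and -0.42 (228308_at) with shHDAC3#1. Leaving out shLuc replicate 2 ended the shHDAC3#1 call (-0.30, adjusted p = 0.056), and leaving out shLuc replicate 1 ended the calls of shDNMT1#2 (0.33, adjusted p = 0.07) and of DNMT1 knockdown (0.17, adjusted p = 0.44, against 0.27 ± 0.08 with all arrays). The DNMT1 knockdown call was also lost without shDNMT1#2 replicate 1 (0.25, adjusted p = 0.064). The difference between the DNMT1 hairpins was not called without any 1 of their 4 arrays (0.28 to 0.36). That between the HDAC3 hairpins was not called without shHDAC3#1 replicate 1 (0.36, adjusted p = 0.07) or shHDAC3#2 replicate 2 (0.29, adjusted p = 0.095). Without shHDAC3#2 replicate 2, FKBP11 was called lower in HDAC3 knockdown (-0.25, adjusted p = 0.024, against -0.21 ± 0.08 and 0.071 with all arrays).

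HERPUD1, an ER membrane protein of the degradation machinery that carries the ERSE-II letters, had log2 signals of 9.17 and 9.27 in the shHDAC3#1 arrays, 9.91 and 10.18 in the shHDAC3#2 arrays, 10.22 and 9.92 in the shDNMT1#1 arrays, and 9.96 and 9.93 in the shDNMT1#2 arrays, against 9.69 and 9.75 in the shLuc arrays. The shHDAC3#1 arrays were below both shLuc arrays and the 6 other knockdown arrays above them. HERPUD1 fell by 0.50 ± 0.11 with shHDAC3#1 and rose by 0.35 ± 0.11 with shDNMT1#1 (adjusted p = 0.0013 and 0.045). The changes with shHDAC3#2 and shDNMT1#2 were 0.32 ± 0.11 and 0.22 ± 0.11 (adjusted p = 0.056 and 0.12), and both were called after a further quantile normalization (0.52 and 0.63, adjusted p = 0.00013 and 1e-05), while the shHDAC3#1 call was lost (-0.14, adjusted p = 0.20). HERPUD1 was 0.82 ± 0.11 higher with shHDAC3#2 than with shHDAC3#1 (adjusted p = 7.5e-06). Its mean change in HDAC3 knockdown was -0.09 ± 0.09 (adjusted p = 0.50), and in DNMT1 knockdown 0.28 ± 0.09 (adjusted p = 0.032). The call in DNMT1 knockdown was lost without either shLuc array, either shDNMT1#2 array or shDNMT1#1 replicate 1 (0.21 to 0.31), and that of shDNMT1#1 without any 1 of 7 arrays, down to 0.20 without shDNMT1#1 replicate 1 (adjusted p = 0.28): both shLuc, both shHDAC3#1 and both shDNMT1#2 arrays and shDNMT1#1 replicate 1. With shHDAC3#2 it was called without its replicate 1 (0.46, adjusted p = 0.018) or without either shDNMT1#1 array (0.32, adjusted p = 0.021 and 0.022). The second probe set, 1569380_a_at, lay between 6.05 and 6.61 and did not follow: its change was 0.15 ± 0.12 with shHDAC3#1 (adjusted p = 0.43).

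DERL3, a derlin of the channel through which misfolded proteins leave the ER, had log2 signals of 8.50 and 8.39 in the shHDAC3#1 arrays, 8.29 and 8.42 in the shHDAC3#2 arrays, 8.40 and 8.48 in the shDNMT1#1 arrays, and 8.62 and 8.37 in the shDNMT1#2 arrays, against 8.14 and 8.37 in the shLuc arrays. Neighbouring groups in the order of levels all overlapped, and DERL3 was called in none of the 9 comparisons at this probe set, 229719_s_at. Its changes against shLuc ran from 0.10 ± 0.11 with shHDAC3#2 to 0.24 ± 0.11 with shDNMT1#2. The 2 other probe sets gave a different account. Both were called higher in DNMT1 knockdown, 228897_at by 0.31 ± 0.08 and 229721_x_at by 0.36 ± 0.08 (adjusted p = 0.012 and 0.0035), and 229721_x_at, whose probes can match other transcripts, fell by 0.43 ± 0.09 with shHDAC3#1 (adjusted p = 0.0022), where the leading probe set changed by 0.19 ± 0.11. After a further quantile normalization the leading probe set was called higher in both knockdowns (0.28 and 0.34 for HDAC3 and DNMT1, adjusted p = 0.031 and 0.011), with shHDAC3#1 (0.36, adjusted p = 0.015) and with shDNMT1#2 (0.44, adjusted p = 0.0044). Without shLuc replicate 2 it was called higher with shDNMT1#2 (0.36, adjusted p = 0.045).

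**Figure D3:**
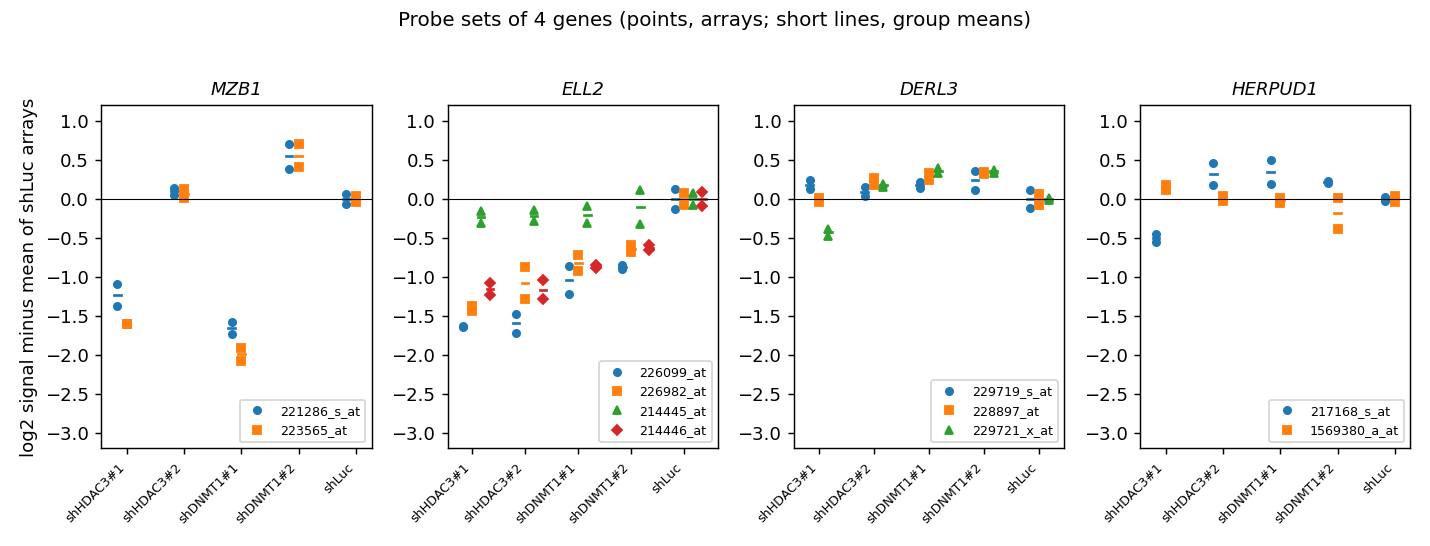
All single-symbol probe sets of MZB1, ELL2, DERL3 and HERPUD1, as log2 signal minus the mean of the shLuc arrays (points, arrays; short lines, group means; shape and colour, probe set). Both probe sets of MZB1 and 3 of 4 of ELL2 move alike, while the probe sets of DERL3 and of HERPUD1 differ in direction with shHDAC3#1.

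The range of the 5 group means was 2.20 for MZB1, 1.64 for ELL2, 0.89 for PRDX4, 0.85 for HERPUD1, 0.83 for FKBP11, 0.75 for CRELD2, 0.69 for SEC11C, 0.63 for JCHAIN and 0.24 for DERL3, with SDs between the 2 arrays of a group from 0.01 to 0.25. Over the 10 arrays, which share groups and control, Pearson's r was highest for CRELD2 with ELL2 (0.94), JCHAIN with PRDX4 (0.80), SEC11C with CRELD2 (0.78) and SEC11C with ELL2 (0.78). It was lowest for JCHAIN with DERL3 (-0.59), JCHAIN with FKBP11 (-0.58) and PRDX4 with DERL3 (-0.53). Among 3998 other genes with a mean of 5 or more and a range of group means of 0.5 or more, those most like MZB1 over the 10 arrays were HGH1, APMAP and TARBP2, with r of 0.97, 0.96 and 0.96. Those most like ELL2 were PLOD2, FAM98B and SEL1L, each with r of 0.97, and those most like PRDX4 were RTRAF, S100A11 and NDUFA5, each with r of 0.98. With 10 arrays in 5 groups and 3998 genes searched, these values only describe these arrays.

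Other genes of the secretory pathway were followed in 7 lists, 99 measured genes of 108 listed. In HDAC3 knockdown 43 of the 99 were lower and 1 higher, with a median change of -0.21, and in DNMT1 knockdown 27 were lower and 8 higher, with a median of -0.04, beside the shares and medians of all genes given above. After a further quantile normalization these counts became 28 lower and 10 higher in HDAC3 knockdown, and 19 lower and 21 higher in DNMT1 knockdown, so the balance in DNMT1 knockdown turned. With each array centred on its median they were 45 lower and 1 higher, and 33 lower and 2 higher. The balance of calls over all genes shifted with that quantile normalization too: 79.4% of the genes called in HDAC3 knockdown were lower as deposited and 55.6% after it, and 67.0% and 53.8% in DNMT1 knockdown. With centring the shares were 88.7% and 85.4%.

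Signal peptidase and translocon genes, the machinery around SEC11C, had 8 of 14 members lower in HDAC3 knockdown and 0 higher. At an unadjusted p under 0.05 in limma 0 were higher too. Of all genes 15.3% were called lower and 3.96% higher in HDAC3 knockdown. SSR1 of the translocon-associated complex (-0.57 ± 0.09), SPCS3 of signal peptidase (-0.54 ± 0.09) and SEC61A1, the pore (-0.51 ± 0.08), had the largest changes. In DNMT1 knockdown 2 fell, SPCS2 (-0.64 ± 0.08) and SPCS1 (-0.39 ± 0.08), and SSR2 rose (0.31 ± 0.07). These counts were near the shares of all genes, 13.5% called lower and 6.66% higher. By hairpin SSR2 was called with shDNMT1#2 (0.35 ± 0.09, adjusted p = 0.0046) and not with shDNMT1#1 (0.27 ± 0.09, adjusted p = 0.063). After a further quantile normalization this list had 2 lower and 8 higher genes in DNMT1 knockdown, with a median of 0.21 against -0.02 as deposited. With each array centred on its median it had 3 lower and 1 higher there, with a median of -0.07. SPCS2 fell by 1.00 ± 0.09 with shDNMT1#2, while its change with shDNMT1#1 was -0.27 ± 0.09 (adjusted p = 0.079).

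Genes of ER-associated degradation, the pathway of DERL3 and HERPUD1, had 12 of 16 members lower in HDAC3 knockdown and 7 in DNMT1 knockdown. In both, 0 were higher. Of all genes 15.3% and 13.5% were called lower in these knockdowns, and 3.96% and 6.66% higher. ERLEC1, a lectin that recognises misfolded glycoproteins, fell by 0.85 ± 0.10 in HDAC3 knockdown and by 0.57 ± 0.10 in DNMT1 knockdown. SEL1L, the scaffold of the HRD1 ligase, fell by 0.84 ± 0.09 and 0.43 ± 0.09, EDEM3, a mannosidase-like protein, by 0.77 ± 0.10 and 0.91 ± 0.10, and UBE2J1, an ER ubiquitin-conjugating enzyme, by 0.62 ± 0.08 and 0.55 ± 0.08. These 4 genes were lower with each of the 4 hairpins (adjusted p of 0.027 or less). At an unadjusted p under 0.05, limma gave 0 higher genes in HDAC3 knockdown and 1 in DNMT1 knockdown. Of this list 7 genes were lower in HDAC3 knockdown and 3 in DNMT1 knockdown after a further quantile normalization, and with centring 13 and 10, again with 0 higher.

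Oxidative folding genes, to which PRDX4 and TXNDC5 belong by function, had 8 of 16 members lower in HDAC3 knockdown and 0 higher. At an unadjusted p under 0.05 in limma 0 were higher there too. In DNMT1 knockdown 6 were lower and 1 higher. Of all genes 15.3% were called lower and 3.96% higher in HDAC3 knockdown, and 13.5% and 6.66% in DNMT1 knockdown. The 1 higher gene was near that share. PDIA4, a disulphide isomerase, fell by 1.93 ± 0.12 with shHDAC3#1 but changed by -0.34 ± 0.12 with shHDAC3#2 (adjusted p = 0.065) and by 0.19 and 0.14 with shDNMT1#1 and shDNMT1#2. ERO1A, the oxidase that recharges disulphide isomerases, fell by 0.88 ± 0.10 in HDAC3 knockdown and by 0.81 ± 0.10 in DNMT1 knockdown, ERP44, which retains unassembled proteins, by 0.83 ± 0.10 and 0.70 ± 0.10, and the membrane thioredoxin TMX1 by 0.57 ± 0.11 and 0.67 ± 0.11. Of the DNMT1 hairpins, TMX1 was called with shDNMT1#2 (-0.98 ± 0.12) and not with shDNMT1#1 (-0.36 ± 0.12, adjusted p = 0.079), and the hairpins differed (adjusted p = 0.0014). This list had, after a further quantile normalization, 7 lower and 1 higher genes in HDAC3 knockdown and 4 lower and 3 higher in DNMT1 knockdown.

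ER chaperones and prolyl isomerases had 10 of 17 members lower in HDAC3 knockdown and 0 higher (1 at an unadjusted p under 0.05 in limma). Of all genes 15.3% were called lower and 3.96% higher in HDAC3 knockdown. In DNMT1 knockdown 2 were lower and 3 higher, where 13.5% of all genes were called lower and 6.66% higher. The 2 lower genes were near that share. HYOU1, a large ER chaperone, fell by 1.35 ± 0.11 with shHDAC3#1 and by 0.49 ± 0.11 with shHDAC3#2. CANX, the lectin chaperone calnexin, fell by 1.34 ± 0.09 with shHDAC3#1, and its change with shHDAC3#2 was -0.16 ± 0.09 (adjusted p = 0.34). DNAJC3, a co-chaperone of BiP, fell by 1.00 ± 0.11 and 0.71 ± 0.11 with these hairpins. DNAJB9, a BiP co-chaperone, fell by 0.60 ± 0.10 in HDAC3 knockdown and by 0.66 ± 0.10 in DNMT1 knockdown, and MANF, an ER stress-induced protein, by 0.40 ± 0.08 and 0.38 ± 0.08. DNAJB9 was lower with shDNMT1#1 (-0.99 ± 0.11) than with shDNMT1#2 (-0.33 ± 0.11; adjusted p of the difference = 0.00028). FKBP9, a prolyl isomerase with a mean signal of 5.39, was called higher in DNMT1 knockdown (0.34 ± 0.11). It was not called with shDNMT1#1 (0.38, adjusted p = 0.059) or shDNMT1#2 (0.30, adjusted p = 0.078) alone. With shHDAC3#1 it was also higher (0.38 ± 0.12, adjusted p = 0.027). The counts after a further quantile normalization were 4 lower and 0 higher in HDAC3 knockdown and 1 lower and 7 higher in DNMT1 knockdown. With each array centred on its median they were 10 lower and 0 higher, and 2 lower and 0 higher. The higher calls in DNMT1 knockdown, FKBP9 among them, were thus lost with centring.

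Among plasma cell regulators and stress sensors, 2 of 11 were lower in HDAC3 knockdown and 0 higher (also 0 at an unadjusted p under 0.05 in limma). The count of 2 was near the share of all genes called lower there, 15.3%. In DNMT1 knockdown 5 were lower and 1 higher, where 13.5% of all genes were called lower and 6.66% higher. ERN1 (IRE1, the sensor that splices XBP1 mRNA) fell by 0.41 ± 0.08 in HDAC3 knockdown and by 0.45 ± 0.08 in DNMT1 knockdown, and ATF4, a stress transcription factor, by 0.37 ± 0.07 and 0.42 ± 0.07. By hairpin ATF4 was called with shHDAC3#1 (-0.49) and shDNMT1#2 (-0.57) and not with shHDAC3#2 (-0.24, adjusted p = 0.087) or shDNMT1#1 (-0.27, adjusted p = 0.061). PRDM1 (-0.73 ± 0.10), IRF4 (-0.57 ± 0.08) and XBP1 (-0.54 ± 0.08) fell in DNMT1 knockdown and were not called in the average of the HDAC3 hairpins (0.02, -0.09 and 0.12). That average joins unlike hairpins. PRDM1 rose with shHDAC3#1 (0.33 ± 0.12, adjusted p = 0.044) and was at -0.30 ± 0.12 with shHDAC3#2 (adjusted p = 0.13), a difference of -0.63 (shHDAC3#2 minus shHDAC3#1, adjusted p = 0.00056). IRF4 was at 0.08 and -0.26 with these hairpins, a difference of -0.34 (adjusted p = 0.017). Set directly against HDAC3 knockdown, they were lower in DNMT1 knockdown, with log2 differences of -0.75, -0.48 and -0.67 (adjusted p = 2.2e-06, 3.9e-05 and 6e-07). XBP1 had log2 signals of 10.62 and 10.68 in the shHDAC3#1 arrays, 10.41 and 10.50 in the shHDAC3#2 arrays, 10.28 and 9.99 in the shDNMT1#1 arrays, and 9.64 and 9.64 in the shDNMT1#2 arrays, against 10.40 and 10.46 in the shLuc arrays. The DNMT1 arrays were all below the shLuc arrays, the shHDAC3#1 arrays above them, and the shHDAC3#2 arrays overlapped them. By hairpin XBP1 changed by -0.79 ± 0.09 with shDNMT1#2 (adjusted p = 1.8e-06) and by -0.30 ± 0.09 with shDNMT1#1 (adjusted p = 0.056). These signals do not tell the spliced from the unspliced form of XBP1. The list had, after a further quantile normalization, 1 lower and 4 higher genes in HDAC3 knockdown, with a median of 0.02 against -0.09 as deposited.

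Genes of elongation and immunoglobulin mRNA processing, some of them partners of ELL2, had 3 of 15 members lower in HDAC3 knockdown and 0 higher. In DNMT1 knockdown 5 were lower and 0 higher. At an unadjusted p under 0.05, limma also gave 0 higher in both. Of all genes 15.3% and 13.5% were called lower in these knockdowns, so the HDAC3 count was near the share of all genes. EAF1 and EAF2 encode ELL-associated factors and AFF1 a scaffold of the super elongation complex. EAF1 fell by 0.42 ± 0.11 in HDAC3 knockdown and by 0.59 ± 0.11 in DNMT1 knockdown, and AFF1 by 0.38 ± 0.09 and 0.72 ± 0.09. AFF1 was called with each of the 4 hairpins. EAF1 was called with shHDAC3#2 (-0.66 ± 0.13) and shDNMT1#2 (-0.78 ± 0.13) and not with shHDAC3#1 (-0.18 ± 0.13, adjusted p = 0.32) or shDNMT1#1 (-0.40 ± 0.13, adjusted p = 0.071), and the HDAC3 hairpins differed by -0.48 (adjusted p = 0.015). EAF2 fell by 0.72 ± 0.09 in DNMT1 knockdown, but with the HDAC3 hairpins it rose by 0.54 ± 0.11 with shHDAC3#1 and fell by 0.88 ± 0.11 with shHDAC3#2. CDK9, the kinase of the complex, was called lower in HDAC3 knockdown (-0.27 ± 0.09, adjusted p = 0.044), with -0.55 ± 0.11 for shHDAC3#1 and -0.002 ± 0.11 for shHDAC3#2.

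Immunoglobulin genes themselves had 0 of 10 members lower in either knockdown, also at an unadjusted p under 0.05 in limma. IGLL1 was called higher in HDAC3 knockdown (0.30 ± 0.09, adjusted p = 0.017) and IGLL5 (0.23 ± 0.07) and IGLJ3 (0.25 ± 0.08) in DNMT1 knockdown (adjusted p = 0.025 and 0.037). None was called in DNMT1 knockdown with each array centred on its median. As deposited, 3.96% and 6.66% of all genes were called higher in HDAC3 and DNMT1 knockdown, and 15.3% and 13.5% lower. The light chain genes IGLC1 and IGLV1-44, named here after their values were seen, averaged 14.21 and 13.06 over the 10 arrays, where the highest signal on an array was 14.17 to 14.39, and the 8 other genes averaged 6.05 to 10.96. At a signal this near the top of the range a fall of IGLC1 may not be measurable. IGLV1-44 averaged near JCHAIN (12.91), for which falls were called. Any narrowing of changes at that level was not tested. The limit at the top of the range does not cover the 8 other genes, but some of them were dim. IGHA1 (6.05), IGKC (6.90), IGHD (6.94) and IGHG1 (7.24) averaged near CD14 (6.73), DCN (6.88) and KRT8 (7.29). Those 3 are markers of the monocyte and the fibroblast or epithelial lists. At such signals a fall may not be measurable either. For any gene of the list, the lack of a call does not show that it kept its level. Probe sets of immunoglobulin genes can share sequence, so the genes of this list are not told apart with certainty.

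**Figure D4:**
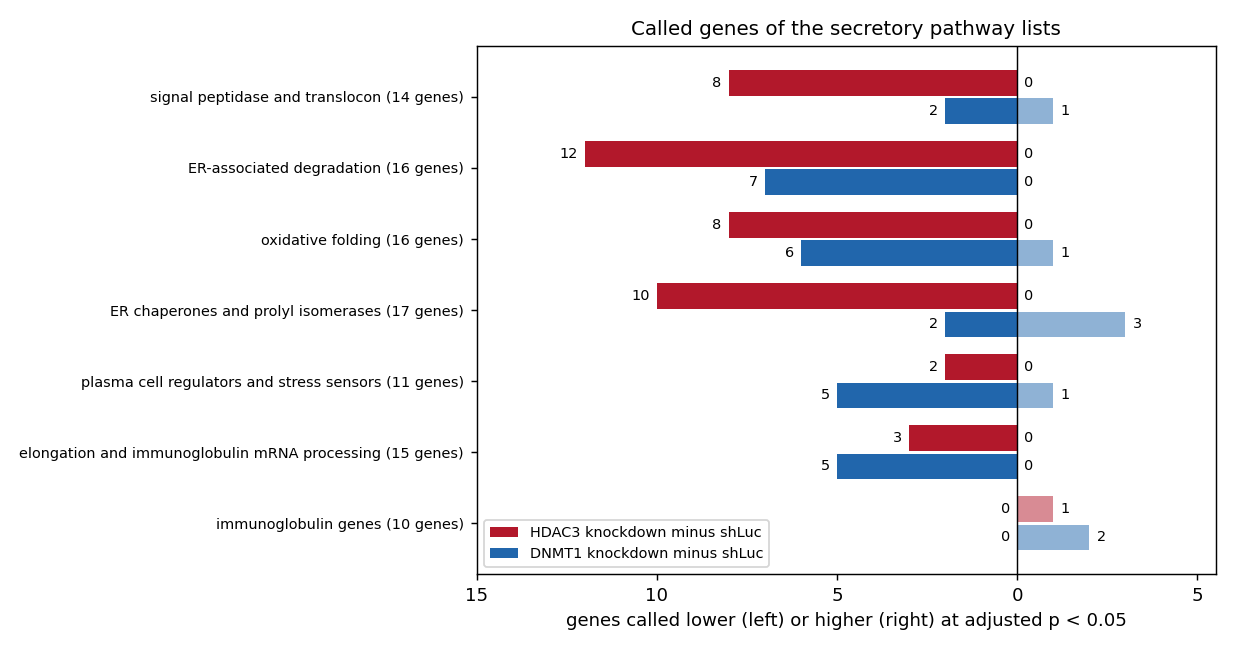
Number of genes of each secretory pathway list called lower (bars to the left) or higher (bars to the right) at an adjusted p under 0.05 in HDAC3 knockdown (red, upper bar) and DNMT1 knockdown (blue, lower bar), each minus shLuc, with the number at the bar's end. ER-associated degradation has 12 and 7 of 16 genes lower as deposited (7 and 3 after a further quantile normalization), and the immunoglobulin list has 0 lower.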

How the data were processed

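RNA of MM.1S cells was measured on 10 Affymetrix arrays. The authors deposited log2 signals made by RMA, per the submitters' processing notes; the sources used here state neither its version nor if all arrays went through 1 run. Of 54675 probe sets, the platform annotation ties 41091 to a single symbol, 1801 to several and 11783 to none. Each of 19775 genes was read at its probe set of highest mean signal. Values were used as deposited, with no filter. limma 3.58.1 in R 4.3.3 (lmFit, eBayes with a trend) was fitted as 1 model of 5 groups of 2 arrays (5 residual degrees of freedom), with Benjamini-Hochberg adjustment over all genes and calls at an adjusted p under 0.05. The fit was tested on simulated data.

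The genes and lists were chosen with earlier results of these data known. All 10 genes are named, with up to 3 called genes of largest change per pathway list and knockdown, both targets, and the 3 genes most correlated with each of the 3 widest-ranging genes. Alternatives changed the probe set rule, filter, scaling, variance model, weights, arrays in the fit, replicate block, random hairpin block and arrays left out. The number of arrays limits the precision.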

Additional observations from a re-analysis of the deposited data

Results flagged for a closer look

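For 7 results the hairpins of 1 target differed in limma's direct test of that difference. Between the HDAC3 hairpins (shHDAC3#2 minus shHDAC3#1, 2 arrays each), the log2 differences were 1.33 for MZB1, 0.82 for HERPUD1 and 0.38 for FKBP11. Between the DNMT1 hairpins (shDNMT1#2 minus shDNMT1#1), they were 2.20 for MZB1, 0.32 for FKBP11, -0.40 for JCHAIN and -0.64 for PRDX4. MZB1 and FKBP11 differed between the hairpins of both targets. The cause was not tested.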

How the results depend on the processing

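Over 81 gene-by-comparison results, 11 alternatives gave 837 values, of which 758 kept direction and call, 49 lost the call, 24 gained one and 6 reversed. HERPUD1 reversed without _s_at and _x_at probe sets: -0.10 in DNMT1 knockdown, -0.18 for DNMT1 minus HDAC3 knockdown, 0.15 with shHDAC3#1, -0.019 with shDNMT1#1 and -0.14 between the HDAC3 hairpins. SEC11C with shDNMT1#2 turned to 0.19 after a further quantile normalization. With a mean of 5 or more required, 5 genes were called with shDNMT1#1. With the hairpin group as a random block (consensus correlation 0.35; chosen for single genes after seeing the data), 2 genes were called in HDAC3 knockdown, 1 in DNMT1 knockdown and 0 between the knockdowns, where limma gave 4 at an unadjusted p under 0.05. Over all genes that fit called 73, 31 and 6.

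Leaving out 1 array gave 4 to 7 called genes in HDAC3 knockdown, 4 to 7 in DNMT1 knockdown, 5 to 6 between the knockdowns, 5 to 8 with shHDAC3#1, 2 to 5 with shHDAC3#2, 2 to 4 with shDNMT1#1, 4 to 7 with shDNMT1#2, 2 to 3 between the HDAC3 hairpins and 2 to 4 between the DNMT1 hairpins. Counts moved by over 1.5 times without shLuc replicate 1 (4 in DNMT1 knockdown, 2 with shHDAC3#2), without shLuc replicate 2 (5 with shHDAC3#1) and without shDNMT1#1 replicate 1 (2 between the DNMT1 hairpins). Of 810 such values, 746 kept the call, 55 lost it, 9 gained one and 0 reversed. The deviations of same-numbered arrays from their group means correlated at r from -0.34 to 0.27, over 0.1 in 2 of 10 pairs. The numbering may be arbitrary, so these values cannot show if arrays of different groups were paired or shared a batch. With the replicate block 6, 7 and 6 genes were called in HDAC3 knockdown, DNMT1 knockdown and between them, and 7, 4, 2 and 5 with shHDAC3#1, shHDAC3#2, shDNMT1#1 and shDNMT1#2. Of all genes called, the share that was lower as deposited, after quantile normalization and after centring was 68.0%, 49.6% and 80.7% with shHDAC3#1, 87.9%, 72.0% and 90.4% with shHDAC3#2, and 56.7%, 46.5% and 76.4% with shDNMT1#2.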
